A study of Oryctolagus cuniculus with 6 samples.

Results

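Bipolar cells are the interneurons that carry the photoreceptor signal to the inner retina. In the dark, glutamate from photoreceptors acts on the receptor mGluR6 of ON bipolar cells, which through the G protein Go keeps the cation channel TRPM1 closed. In light, glutamate falls, Go is switched off with the help of regulators of G protein signalling, and TRPM1 opens. The 9 genes described here were chosen by name as genes of bipolar cell identity and ON-pathway signalling. All 9 were found by their symbol among the 28788 genes of the files, and all 9 were among the 18697 genes that passed the filter on low counts. They are PRKCA, CABP5 and VSX1 (cell identity), and TRPM1, NYX and LRIT3 (the channel and proteins needed for it at the dendritic tip). GNG13, RGS11 and PCP2 (the G protein and its regulators) complete the list.

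RNA of retina tissue was sequenced from 3 normal rabbit samples and 3 samples of proliferative vitreoretinopathy (PVR), a scarring disease of the retina. For the PVR model in adult rabbits, the sclera was punctured, vitreous was withdrawn, and platelet-rich plasma was injected into the vitreous cavity. The sources used here give neither the strain, nor the time after injection, nor whether normal eyes had a sham operation, nor whether each sample was a separate animal. The p-values therefore set the group difference against the spread between these samples, which may be partly technical.

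The samples had between 31904593 and 43035080 counted reads, and the counts of the 9 genes lay between 216 and 21527 in single samples. Rod markers summed to between 31850 and 50540 CPM (counts scaled to a common library total) in the 6 samples, and bipolar cell genes were present in all of them. Normal replicate 2 stood apart in lens genes, with 31170 CPM over 9 lens markers against 12.1 to 15.2 CPM in the other normal samples and 272 to 308 CPM in PVR. Oligodendrocyte markers summed to 249, 581 and 1250 CPM in the normal samples and to between 148 and 158 CPM in PVR. Over all genes tested, 1.7% had an adjusted p under 0.05 (quasi-likelihood test of edgeR, adjusted by the Benjamini-Hochberg method), and 1.01% also had a log2 fold change beyond 1.

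None of the 9 bipolar cell genes passed the test between PVR and normal retina (0 of 9, against 1.09% of all genes called higher and 0.615% called lower with edgeR). At an unadjusted p under 0.05 the count was also 0 of 9, whereas 21.2% of all genes tested were under that value. DESeq2 and limma-voom called 0 of 9 as well, and DESeq2 called 8.75% of the genes to which it gave an adjusted p. The fitted log2 fold changes lay between -0.46 for PCP2 and 0.32 for RGS11. Their median was -0.17, beside -0.0088 over all genes tested. Of the 9, 7 were below 0, beside 51.1% of all genes. TRPM1 at -0.0022 and CABP5 at -0.0031 were among these 7. Under the other tests and settings described below, between 5 and 7 were below 0. For 8 of the 9, the 95% interval of the log2 fold change lay inside -1 and 1, as it did for 61.4% of all genes tested, and PCP2 was the exception. In bulk tissue, fewer bipolar cells and less RNA per cell cannot be told apart.

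**Figure D1:**
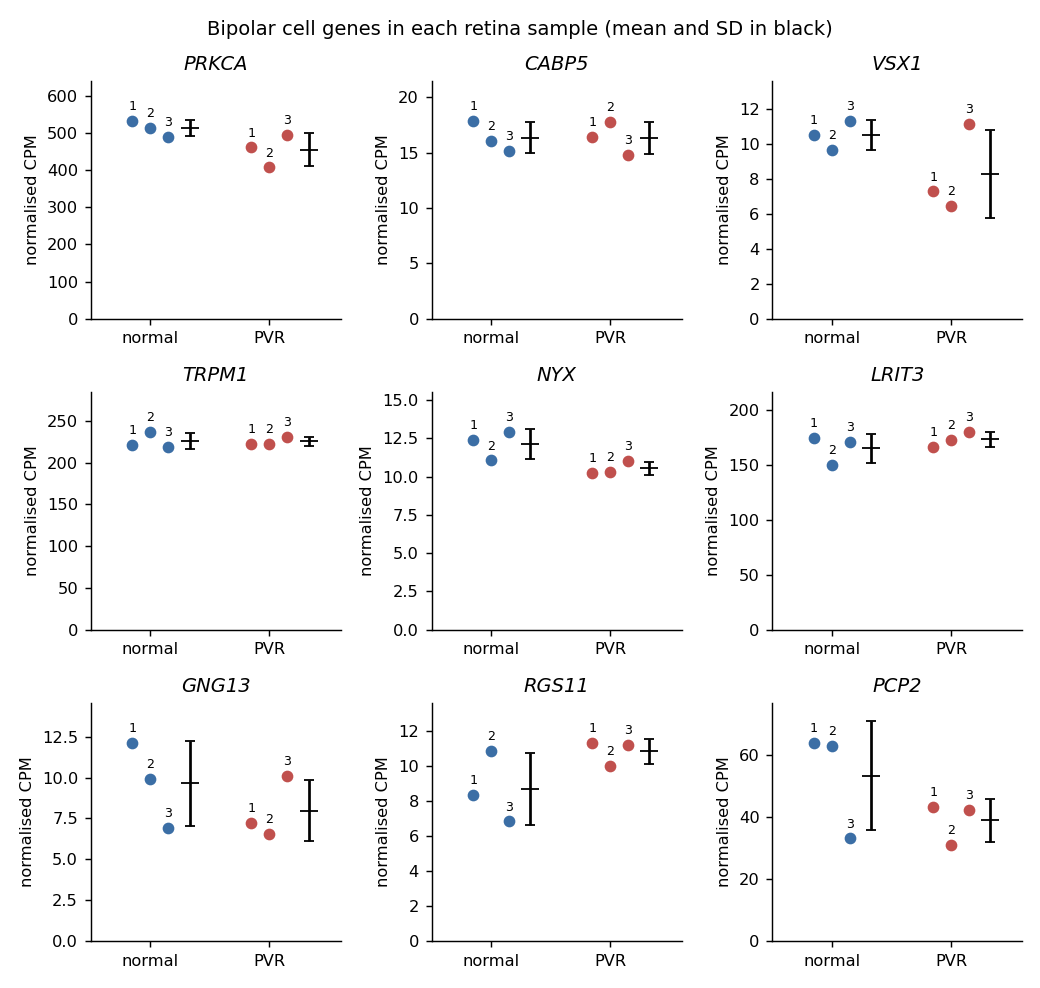
Each panel shows 1 bipolar cell gene, with the normalised CPM of each sample on a linear axis from 0, the replicate number above each point, and the mean and SD (n = 3) of each group in black. TRPM1 lay between 219 and 237 CPM in all 6 samples, whereas PCP2 ranged from 31.0 to 64.0 CPM, and the groups of NYX did not overlap on this scale, although they did on the FPKM scale.

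Per length, the 9 genes covered a wide range of levels. On the FPKM scale (fragments scaled to gene length and to the total reads of the sample), PCP2 had the highest mean in the normal samples, at 70.8 ± 22.3 (SD, n = 3), followed by PRKCA at 60.1 ± 2.22. TRPM1 at 34.5 ± 0.768 and LRIT3 at 33.6 ± 3.31 came next, and their ranges overlapped, as did those of PCP2 and PRKCA. CABP5 stood alone at 16.3 ± 1.35 and VSX1 at 5.16 ± 0.533. NYX (3.42 ± 0.348), GNG13 (2.69 ± 0.711) and RGS11 (2.44 ± 0.515) were the lowest, and in the normal samples each overlapped its neighbour in this order. In the PVR samples the order of the mean FPKM was PRKCA, PCP2, LRIT3, TRPM1, CABP5, VSX1, RGS11, NYX and GNG13. PRKCA thus came before PCP2, LRIT3 before TRPM1, and RGS11 before NYX instead of last. The members of the first exchange overlapped in both groups, as did those of the second. RGS11 lay below NYX in all normal samples, whereas in PVR their FPKM ranges, 3.01 to 3.36 and 3.03 to 3.21, overlapped.

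Among the identity genes, PRKCA encodes protein kinase C alpha, the classical marker of rod bipolar cells. It had a normalised level of 533, 513 and 491 CPM in the normal samples and 461, 407 and 496 CPM in the PVR samples. PVR replicates 1 and 2 were below all normal samples, and PVR replicate 3 was within the normal range. The log2 fold change was -0.17 (standard error, SE, 0.10, edgeR adjusted p = 0.359), with an interval from -0.41 to 0.06. CABP5, a calmodulin-like calcium-binding protein of rod bipolar cells and some cone bipolar cells, had 17.9, 16.0 and 15.2 CPM in the normal samples and 16.4, 17.7 and 14.8 CPM in PVR. The groups overlapped, and the log2 fold change was -0.0031 with an interval from -0.32 to 0.32.

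VSX1, a homeobox transcription factor of cone bipolar cells, differed more within PVR than between the groups. Its level was 10.5, 9.64 and 11.3 CPM in the normal samples and 7.28, 6.43 and 11.2 CPM in the PVR samples. PVR replicates 1 and 2 were below every normal sample and PVR replicate 3 was near the highest of them. The coefficient of variation was 8.04% in the normal samples and 30.4% in PVR. The log2 fold change was -0.34 (SE 0.23, edgeR adjusted p = 0.421), with an interval from -0.88 to 0.20. Without PVR replicate 3 it was -0.62 (edgeR adjusted p = 0.117), and over all 15 alternatives the adjusted p lay between 0.117 and 0.734.

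TRPM1, the cation channel at the end of the mGluR6 cascade, had the narrowest interval of the 9 genes. Its level was 222, 237 and 219 CPM in the normal samples and 222, 223 and 231 CPM in PVR, so all PVR samples lay within the normal range. The log2 fold change was -0.0022 (SE 0.08, edgeR adjusted p = 0.99). The interval from -0.18 to 0.18 corresponds to a change between -11.7% and 12.9%. The sign of this value was positive in 9 of the 15 alternatives, and that of CABP5 in 7 of 15, so neither gene has a direction.

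NYX and LRIT3 are leucine-rich repeat proteins of the ON bipolar cell synapse that are needed for TRPM1 at the dendritic tips. Bulk RNA does not show which cells on either side of this synapse made their RNA. NYX, or nyctalopin, had 12.4, 11.1 and 12.9 CPM in the normal samples and 10.3, 10.3 and 11.0 CPM in PVR. Every PVR sample was below every normal sample, which held for 14.6% of all genes tested, but the gap between PVR replicate 3 and normal replicate 2 was small. On the FPKM scale the groups overlapped, with 3.09 and 3.21 in PVR replicates 2 and 3 and 3.03 in normal replicate 2. Its log2 fold change was -0.20 (SE 0.14, edgeR adjusted p = 0.428), with an interval from -0.53 to 0.12. LRIT3 had 174, 150 and 171 CPM in the normal samples and 166, 173 and 180 CPM in PVR. Normal replicate 2, the sample with the lens genes, was the lowest of the 6, and the log2 fold change of 0.07 (interval from -0.13 to 0.27) was 0.0096 without it.

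The genes of the G protein and its regulators had the widest spread in normal retina, with coefficients of variation of 27.2% for GNG13, 32.9% for PCP2 and 23.4% for RGS11, against 4.18% to 8.52% for the other 6 genes. GNG13 encodes a gamma subunit that ON bipolar cells use. Its level was 12.1, 9.9 and 6.9 CPM in the normal samples and 7.25, 6.58 and 10.1 CPM in PVR. Both groups ran over much the same range, and the log2 fold change was -0.27 (SE 0.26, edgeR adjusted p = 0.573), with an interval from -0.88 to 0.34. It was -0.07 without normal replicate 1, -0.48 without PVR replicate 3 and -0.46 without normal replicate 3, so single samples set its size.

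PCP2, a GoLoco protein that binds Go in ON bipolar cells, had 64.0, 63.1 and 33.2 CPM in the normal samples and 43.4, 31.0 and 42.4 CPM in PVR. Normal replicates 1 and 2 were above all PVR samples, while normal replicate 3 was below PVR replicates 1 and 3. The log2 fold change was -0.46 (SE 0.26, edgeR adjusted p = 0.343), with an interval from -1.06 to 0.15. This interval does not exclude a change of -51.9% relative to normal. Without normal replicate 3 the log2 fold change was -0.70 (adjusted p = 0.0716 from edgeR, beside 0.0716 to 0.63 over the 15 alternatives). RGS11, which speeds up the switching off of Go, was the gene with the largest positive value. It had 8.35, 10.8 and 6.83 CPM in the normal samples and 11.3, 10 and 11.2 CPM in PVR. Normal replicate 2 lay inside the PVR range and the other normal samples below it. The log2 fold change was 0.32 (SE 0.20, edgeR adjusted p = 0.388), with an interval from -0.15 to 0.79, and it was 0.52 without normal replicate 2.

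**Figure D2:**
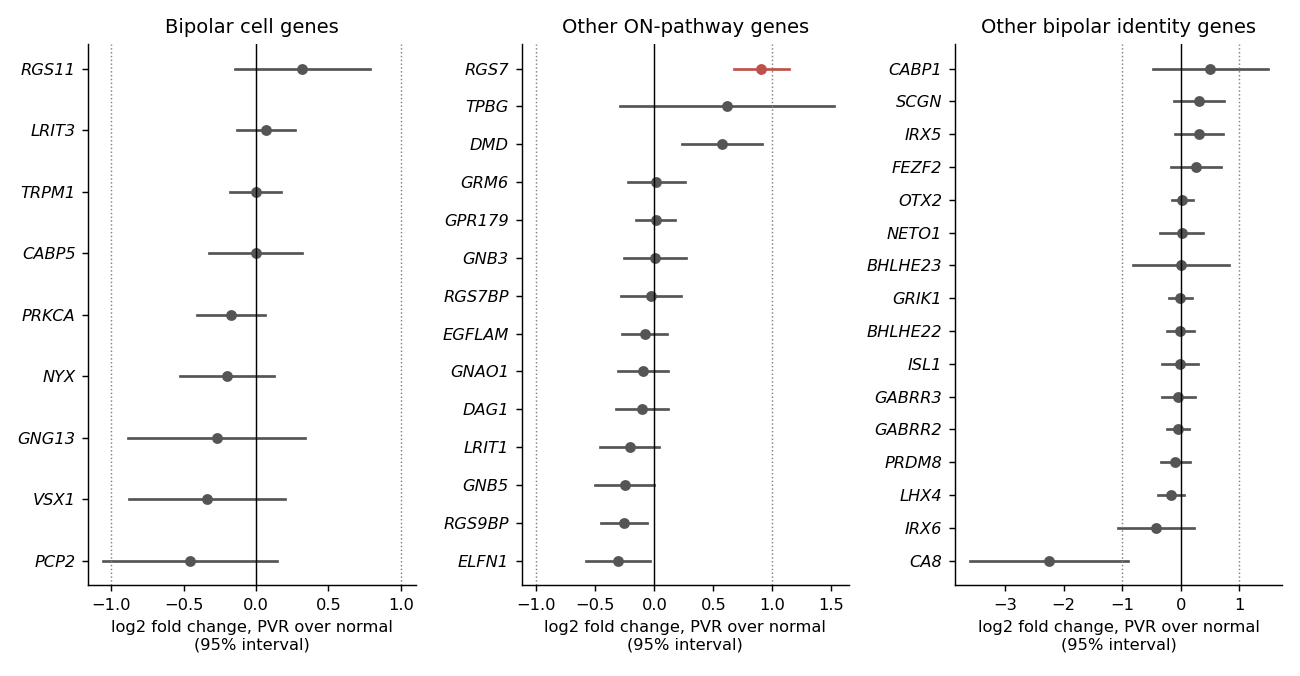
Points are log2 fold changes of PVR over normal from edgeR and lines are 95% intervals, for the 9 bipolar cell genes, 14 other ON-pathway genes and 16 other bipolar identity genes. Dotted lines mark -1 and 1, and the horizontal scales differ between panels. RGS7, in red, had an adjusted p under 0.05, and the line of every bipolar cell gene crosses 0.

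The remaining genes of the ON pathway were taken from a list of 14, all of which were matched and tested. Of these, 1 was called higher in PVR and 0 lower by edgeR, beside 1.09% and 0.615% of all genes, and 5 had an unadjusted p under 0.05, beside 21.2% of all genes. Their median log2 fold change was -0.06. In normalised CPM, every PVR sample lay below every normal sample for 3 of the 14, beside 14.6% of all genes. These were RGS9BP, LRIT1 and ELFN1. Every PVR sample lay above every normal sample for 2 of the 14, RGS7 and DMD, and the share of all genes above was not counted. The gene called was RGS7, the partner that acts with RGS11 on Go. RGS7 had 45.1, 36.4 and 38.9 CPM in the normal samples and 73.0, 72.2 and 80.4 CPM in PVR, with no overlap. It rose by a log2 fold change of 0.91 (SE 0.10, edgeR adjusted p = 0.0125), which is not past a log2 fold change of 1. RGS7 had an adjusted p under 0.05 in 14 of 15 alternatives, but not without PVR replicate 1, where it was 0.106 with a log2 fold change of 0.93. Whether the change of RGS7 differs from that of RGS11 was not tested. RGS7 is made by several classes of retinal neurons, and bulk RNA does not show which of them carried the difference.

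Of the most abundant others, DMD, the dystrophin gene, had a mean of 593 ± 41.2 CPM in the normal samples and 883 ± 164 CPM in PVR (SD, n = 3), a log2 fold change of 0.58 (edgeR adjusted p = 0.0926). The adjusted p of DMD was 0.00242 with DESeq2 and 0.0377 without PVR replicate 3. RGS9BP, a membrane anchor for regulators of G protein signalling in photoreceptors and ON bipolar cells, had a log2 fold change of -0.25. Its interval ran from -0.45 to -0.06 (edgeR unadjusted p = 0.0173, adjusted p = 0.153). GNB5, the beta subunit that RGS7 and RGS11 need, had -0.25 with an interval from -0.50 to -0.0029 (edgeR unadjusted p = 0.048, adjusted p = 0.232). LRIT1, a relative of LRIT3, had -0.21, and EGFLAM, the synaptic matrix protein pikachurin, had -0.08. Further genes, chosen after their values were seen, stand at the front of the cascade. GRM6, which encodes mGluR6, had 113, 116 and 105 CPM in the normal samples and 108, 101 and 129 CPM in PVR, a log2 fold change of 0.02 with an interval from -0.23 to 0.26. GPR179, which anchors the RGS proteins at the dendritic tip, had 0.0090 with an interval from -0.16 to 0.17, and GNB3, the beta subunit of Go in these cells, had 0.0037 with an interval from -0.26 to 0.27. The signs of these 3 genes changed in 2 of the 15 alternatives each. ELFN1, a photoreceptor adhesion protein that binds mGluR6 and was also chosen after its values were seen, had the lowest value of the list. It had 104, 100.3 and 112 CPM in the normal samples and 90.3, 70.9 and 94.4 CPM in PVR, again without overlap, and a log2 fold change of -0.31 with an interval from -0.58 to -0.04 (edgeR unadjusted p = 0.0312, adjusted p = 0.194).

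A second list held 19 other genes of bipolar cell identity, of which 16 were matched and tested, while LHX3, CABP2 and GABRR1 were not matched and are not reported. Of the 16, 0 were called higher and 0 lower by edgeR, beside the same 1.09% and 0.615% of all genes, and 1 had an unadjusted p under 0.05, beside 21.2%. DESeq2 called 1 lower and 0 higher, and it called 8.75% of all genes in either direction. The median log2 fold change was -0.0050. In normalised CPM, every PVR sample lay below every normal sample for 2 of the 16, beside 14.6% of all genes, and above for 1. GRIK1, a kainate receptor subunit of OFF bipolar cells, was the most abundant of them, with 243 ± 11.0 CPM in the normal samples and 243 ± 16.5 CPM in PVR. OTX2, a transcription factor of photoreceptors and bipolar cells, had a log2 fold change of 0.03 with an interval from -0.15 to 0.21. GABRR2, a subunit of the GABA receptors on bipolar cell terminals, had -0.05, PRDM8, a factor of bipolar cell formation, had -0.09, and BHLHE22, a helix-loop-helix transcription factor, had -0.0068. LHX4, a LIM homeobox factor chosen after its values were seen, had 32.6 ± 0.962 CPM in the normal samples and 29.1 ± 1.30 CPM in PVR (SD, n = 3), without overlap, and a log2 fold change of -0.17 with an interval from -0.38 to 0.05 (edgeR adjusted p = 0.335). CA8, a carbonic anhydrase-related protein chosen after its values were seen, was the gene that DESeq2 called. Its counts were 89, 113 and 48 for normal retina and 5, 22 and 23 for PVR, and its log2 fold change was -2.25, with an adjusted p of 0.0973 in edgeR and of 0.00474 in DESeq2.

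The 9 genes did not share 1 pattern across the samples. On the log2 CPM scale, each gene was centred on its own mean. TRPM1 and LRIT3 then differed by a root mean square of 0.11 over the 6 samples, and PRKCA and NYX by 0.106. This measure is small for any genes that vary little, whatever their direction. In normal replicates 1 to 3, TRPM1 had -0.026, 0.072 and -0.044, whereas LRIT3 had 0.046, -0.17 and 0.017, with opposite signs. In PVR replicates 1 and 3 their signs were the same. VSX1 and RGS11 were the furthest apart, at 0.491. The mean of the 9 centred profiles was 0.16, 0.10 and -0.09 for normal replicates 1 to 3, and -0.07, -0.18 and 0.07 for PVR replicates 1 to 3. Normal replicate 3 and PVR replicate 3 thus lay on the side of the other group. PRKCA was the member nearest to this mean profile (0.0574) and PCP2 the most distant (0.301). Among 9510 other genes with a symbol and a mean log2 CPM of at least 3, those nearest to it were YPEL3, RNF2, CTNNB1, ZUP1 and PRDM8, at 0.0138 to 0.0254.

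**Figure D3:**
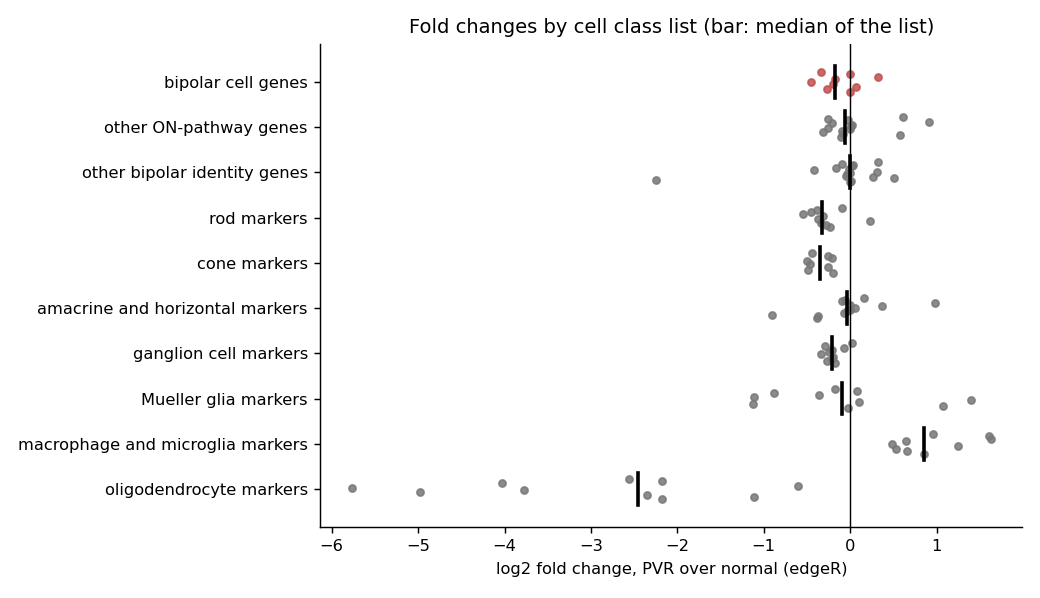
Each point is the log2 fold change of 1 gene in PVR over normal retina, and the black bar is the median of its list. Bipolar cell genes, in red, had a median of -0.17, while oligodendrocyte markers had a median of -2.45 and macrophage and microglia markers of 0.86, and lens markers, which normal replicate 2 sets, are not drawn.

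Markers of the other retinal cells moved in the same comparison as follows. Over all genes tested, edgeR called 1.09% higher and 0.615% lower, and 21.2% had an unadjusted p under 0.05. A log2 fold change below 0 was found for 51.1% of them. Of 10 rod markers, 0 were called and 9 had a log2 fold change below 0, with a median of -0.32. They summed to 49920, 41040 and 50540 CPM in the normal samples and to 38290, 31850 and 42610 CPM in PVR. Of 8 cone markers, 0 were called by edgeR, all 8 were below 0 and the median was -0.35, and 10 ganglion cell markers had 0 called and a median of -0.21. Over 13 amacrine and horizontal markers the count was 0 and the median -0.04. These lists had 5, 2, 0 and 3 genes at an unadjusted p under 0.05, in the same order. The 9 bipolar cell genes summed to 1030, 972 and 964 CPM in the normal samples and 969, 919 and 1017 CPM in PVR. Of 10 Müller glia markers, RLBP1 and GLUL were called lower and CLU higher, with a median over the list of -0.10. Macrophage and microglia markers summed to between 30.5 and 69.6 CPM in the normal samples and between 80.6 and 121 CPM in PVR, with 0 of 9 called, 5 at an unadjusted p under 0.05 and all 9 above 0. Of 10 oligodendrocyte markers, 3 were called lower and all 10 were below 0, and of 8 lens markers tested 0 were called and 1 had an unadjusted p under 0.05. The part that these cells have in the values of the bipolar cell genes was not tested.

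Fold changes also moved with gene length. The median log2 fold change was -0.08 among the 4679 shortest of the genes tested and 0.11 among the 4673 longest. PCP2 with 733 bases and CABP5 with 981 bases belong to the former, and PRKCA with 8309 bases and TRPM1 with 6371 bases to the latter. The part of length in the values of these genes was not tested.

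**Figure D4:**
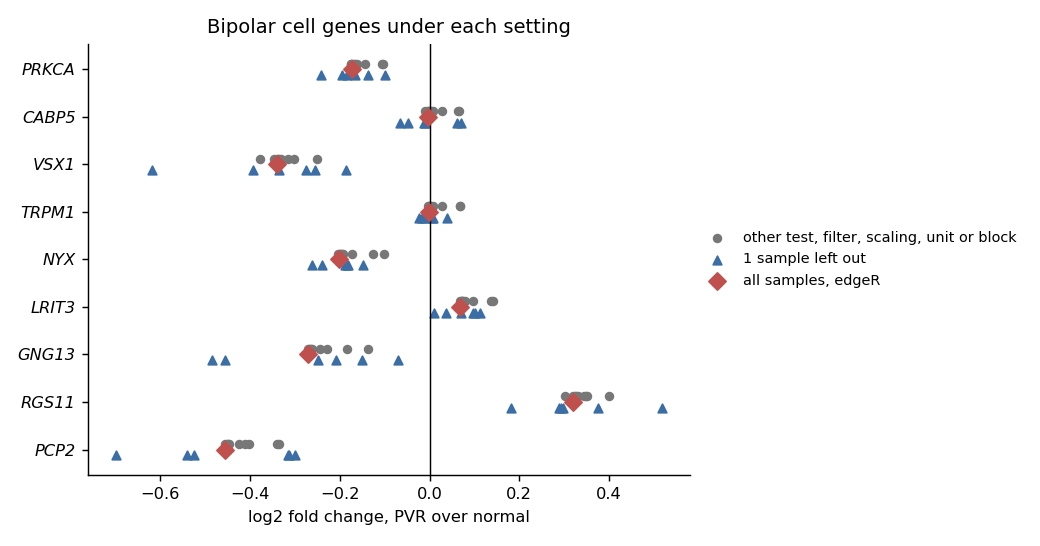
For each bipolar cell gene, the diamond is the log2 fold change of PVR over normal with edgeR on all samples, circles are the alternatives in test, filter, scaling, unit and block, and triangles leave out 1 sample. TRPM1 and CABP5 have points on both sides of 0, and the widest spread of triangles, for VSX1, GNG13, PCP2 and RGS11, comes from leaving out single samples.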

How the data were processed

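Rabbit retina RNA was measured in 3 normal and 3 PVR samples, which were grouped by their titles. The deposited counts are raw reads per gene, which the authors obtained with HISAT2 on the genome build OryCun2.0 and htseq-count. The authors also deposited FPKM values, made from the same counts, gene lengths and sample totals. The strand setting is not given in the sources used here, so reads of overlapping genes cannot be told apart. The study's methods and the labels name different library kits.

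Counts were analysed with edgeR 4.0.16 in R 4.3.3 after its default filter on low counts and TMM scaling, with condition as the single term, and p-values were adjusted over 18697 genes. Calls needed an adjusted p under 0.05, and where stated a log2 fold change beyond 1 as well. Normalised CPM uses TMM-scaled library sizes, summed marker CPM the plain totals. Standard errors are the fold change divided by the root of the F statistic, and the 95% intervals follow from them. Intervals and p-values rest on 3 samples a group.

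The bipolar cell genes and the other lists were chosen with earlier results of these data known. Named genes were all 9 members and, from the 2 further bipolar lists, genes with an adjusted p under 0.05 and up to 5 of the most abundant others. A gene of the second list is not reported here. Genes outside this rule are marked. LRIT1, CABP1, PDE6G, C1QA and C1QB were matched through RefSeq gene identifiers or synonyms of mOryCun1.1, used for names only. Alternatives were DESeq2 1.42.0, RLE and upper-quartile factors, 2 other filters, limma 3.58.1 (voom, and log2 FPKM with 1 or 0.1 added), a fit blocked on replicate number, and fits that omit single samples. The tests were also tried on simulated counts, in which the fold changes set were larger than those fitted to the 9 members. That trial cannot show whether changes as small as theirs would be found. Tables and figures were made with Python 3.11.15, pandas 2.3.3 and matplotlib 3.10.9. Sequences and genome positions were not used here.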

Additional observations from a re-analysis of the deposited data

How the results depend on the processing

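For the 9 bipolar cell genes, the count called in either direction was 0 in all 15 alternatives, and the lowest adjusted p in any of them was 0.0716, for PCP2 without normal replicate 3. With single samples left out, at most 1 of the 9 had an unadjusted p under 0.05, namely RGS11 without normal replicate 2, PCP2 without normal replicate 3 and VSX1 without PVR replicate 3. The median log2 fold change of the 9 genes lay between -0.24 and -0.07 with 1 sample left out, and the value without normal replicate 1 was -0.0698. For the other ON-pathway genes, 2 were called higher with DESeq2 (RGS7 and DMD), and between 0 and 2 with 1 sample left out. For the other bipolar identity genes, DESeq2 called 1 lower, CA8. These counts of higher genes and the values of single genes on both lists were added after seeing the data. Over all genes, 188 were past both thresholds with edgeR, against 807 with DESeq2, 87 on the log2(FPKM + 1) scale and between 22 and 436 with 1 sample left out. The cause was not tested. Same-numbered normal and PVR samples did not deviate together (correlations of -0.013, 0.073 and 0.042 across genes) and not every sample correlated best with its own number, so the numbers were not taken as pairs. With the replicate block, 82 genes were past both thresholds and 0 of the 9 bipolar cell genes were called. The lower ends of the intervals of VSX1, GNG13 and PCP2 were changes of -45.6%, -45.8% and -51.9% relative to normal. Decreases of that size are therefore not excluded with these samples.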

Other observations

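IRX6, a homeobox factor of OFF cone bipolar cells, was singled out after its values were seen because it varied across the samples much as VSX1 did. It had 13.3, 11.2 and 10.4 CPM in the normal samples and 7.61, 5.95 and 12.5 CPM in the PVR samples, so PVR replicates 1 and 2 were again below all normal samples and PVR replicate 3 among them. Its log2 fold change was -0.42 (adjusted p = 0.413 from edgeR), and -0.78 without PVR replicate 3 (adjusted p = 0.0969 from edgeR, the lowest of the 15 alternatives, which reached 0.734). The centred log2 CPM profiles of VSX1 and IRX6 differed by a root mean square of 0.166 over the 6 samples. This likeness was not particular to IRX6, which came at rank 271 among 9510 genes by nearness to VSX1, after the photoreceptor gene ELFN1 at rank 269 and before GNB5 at rank 382. No test was made of it.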
